A study of Mus musculus with 4 samples.

Results

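The eosinophil-associated ribonucleases (Ear) are small secreted enzymes of the ribonuclease A superfamily and the mouse counterparts of human eosinophil-derived neurotoxin and eosinophil cationic protein. They are stored in the eosinophil's granules beside major basic protein and eosinophil peroxidase, and granule proteins are made mainly while eosinophils mature in the bone marrow. The family has expanded by gene duplication in rodents, so that its members are close in sequence. Members were all genes whose symbol in the deposited table begins with Ear and a digit. They were Ear1, Ear2, Ear6 and Ear10, which are 4 of the 5807 genes listed.

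Per the sample labels and the methods, eosinophils were sorted from bone marrow and pleural cavity of wild-type mice aged 6 to 8 weeks. LLC cells had been injected into the pleural space. The time, 2 days after injection, is from a figure legend of the study, whose wording may refer to the pleural cavity alone. LLC is a Lewis lung carcinoma line of the mouse and gives malignant pleural effusion in this model. Each tissue had 2 libraries, read as pairs of 100 bases, and whether a library came from 1 mouse or several is not given in the sources used here. The labels and the study's methods give LLC-injected mice for both groups. The study's results text also calls the bone marrow eosinophils naive, and the labels and methods were followed here. If the bone marrow came from mice without tumor cells, every ratio below would compare mice with and without LLC as well as tissues. The sort differed between tissues: bone marrow eosinophils were enriched on F4/80 and sorted as DAPI- CD45+ SiglecF+ cells of high side scatter, whereas pleural cavity eosinophils were enriched on CD45 and also had to be CD11c-, Gr1-/low, CD11b+ and F4/80+. The table gives 1 mean of the estimated reads per gene and tissue and no value per library, so no standard deviation and no test could be computed, and every difference below is a description of 2 tissue means. Listed genes were those that passed the study's own comparison of the tissues, so that a member is listed is not a finding.

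The 4 genes lie on chromosome 14 (GRCm38, GENCODE annotation), and Ear1, Ear10 and Ear2 form a cluster apart from Ear6. Ear1 (ENSMUSG00000072601) is annotated on the minus strand at chr14:43818765-43875517, with its main transcript at the low end of that span. Ear10 (ENSMUSG00000090166) is on the minus strand at chr14:43922720-43923559, which begins 0.104 Mb from the low end of Ear1. Ear2 (ENSMUSG00000072596) is on the plus strand at chr14:44102654-44103534, at a distance of 0.284 Mb. Ear6 (ENSMUSG00000062148) is on the plus strand at chr14:51853699-51854643, at a distance of 8.03 Mb. The main transcript of each gene has 2 exons, and its whole coding sequence is in the second of them. The pseudogenes Ear-ps12 and Ear-ps9 overlap the annotated span of Ear1.

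**Figure D1:**
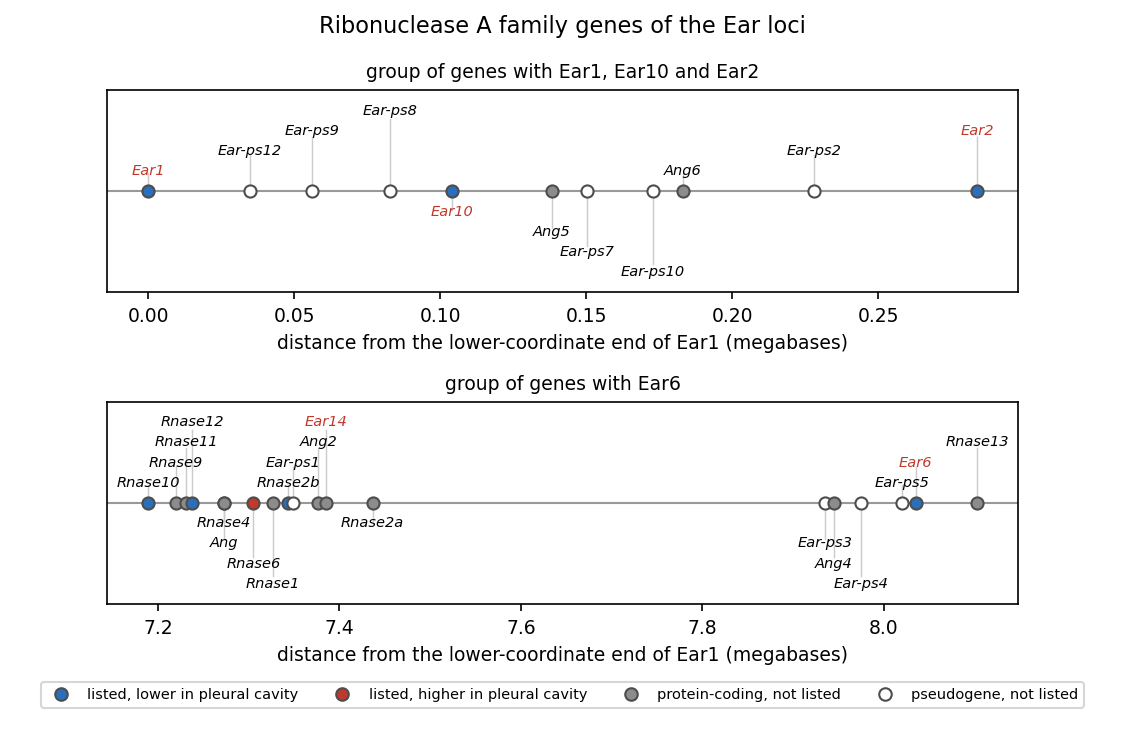
Map of ribonuclease A family genes on chromosome 14, with the distance from the lower-coordinate end of Ear1 in megabases on the x axis, the cluster of Ear1, Ear10 and Ear2 in one panel and that of Ear6 in the other. Ear2 lies 0.284 Mb and Ear6 8.03 Mb from Ear1, and filled points mark listed genes that were lower (blue) or higher (red) in the pleural cavity, grey points protein-coding genes not listed and open points pseudogenes.

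The start of the coding sequence is shown because it lets the likeness of the members be seen. Each line gives coding bases 1 to 100 on the coding strand, 5′ to 3′, and capitals mark bases unlike Ear1.
Ear1 (chr14:43819310-43819409, minus strand): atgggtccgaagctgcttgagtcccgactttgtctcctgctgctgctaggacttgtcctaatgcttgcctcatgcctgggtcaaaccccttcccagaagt
Ear2 (chr14:44102887-44102986, plus strand): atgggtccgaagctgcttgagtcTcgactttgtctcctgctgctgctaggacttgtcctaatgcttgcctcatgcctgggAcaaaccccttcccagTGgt
Ear10 (chr14:43923269-43923368, minus strand): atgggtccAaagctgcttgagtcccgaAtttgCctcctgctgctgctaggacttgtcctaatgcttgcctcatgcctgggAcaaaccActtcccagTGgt
Ear6 (chr14:51853998-51854097, plus strand): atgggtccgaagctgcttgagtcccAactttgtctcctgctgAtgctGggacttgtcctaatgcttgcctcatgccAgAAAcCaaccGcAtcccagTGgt

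In this stretch Ear2 was unlike Ear1 at 4 bases, Ear10 at 7 and Ear6 at 12. Over the whole coding sequence, Ear2 and Ear10 were 97.0% identical, Ear1 and Ear2 95.1%, and Ear1 and Ear10 94.5%. Ear6 stood further off, with 87.4% identity to Ear1, 87.7% to Ear2 and 87.5% to Ear10.

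A single read of 100 bases can be assigned to 1 gene only where no other gene holds the same bases, while the mate of a read pair covers further bases. Ear6 was the member for which this held over the whole transcript tested, its main transcript of 713 bases. None of the 614 windows of 100 bases in it was found in any of 29 other genes of the ribonuclease A family. The longest Ear6 transcript, of 893 bases, was not tested. Of the Ear1 windows, 23.9% were held exactly by another family gene, 21.5% by the pseudogene Ear-ps9 and 2.44% by Ear10. For Ear2 the share was 13.9%, all of it also in Ear10, and for Ear10 it was 24.2%. No tested window of the 4 genes was found among 141722 transcripts outside the family. The mean reads of Ear6 were whole or ended in 0.5, as the mean of 2 whole counts does, whereas those of Ear1, Ear2 and Ear10 were fractional, which happens when an estimator divides reads between similar sequences. The values of Ear1, Ear2 and Ear10 are therefore uncertain between paralogs. Whether reads were counted by strand is not given in the sources used here, and the long noncoding RNA Gm32427 overlaps the annotated span of Ear1.

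**Figure D2:**
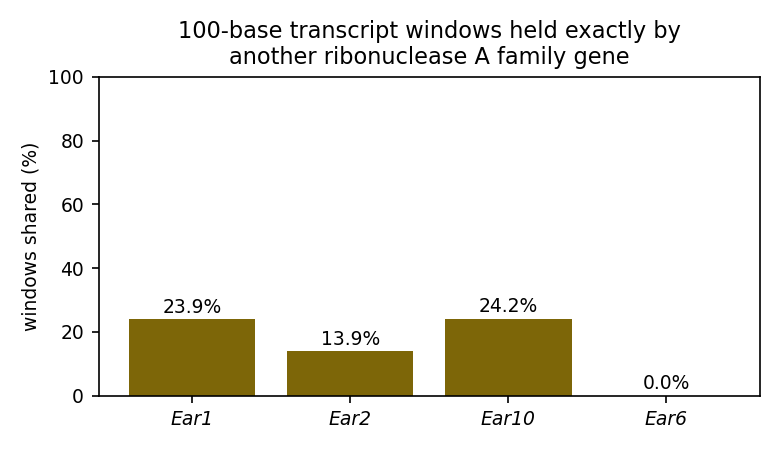
Share of 100-base windows (y axis, %) in the main transcript of each Ear gene that another ribonuclease A family gene holds exactly. The share is 23.9% for Ear1, 13.9% for Ear2, 24.2% for Ear10 and 0% for Ear6.

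Ear1, Ear2 and Ear6 were among the most abundant listed transcripts in bone marrow eosinophils, and all 4 Ear genes were far lower in pleural cavity eosinophils. Summed over the 4 genes, the mean reads were 287761 in bone marrow and 1345 in the pleural cavity. Reads were then divided by the total of all listed genes and given per 1000000 listed reads (RPM), the scale on which the tissues are compared below. In RPM the family stood at 24464 in bone marrow and 84.3 in pleural cavity eosinophils. That is 2.45% of the listed reads in bone marrow and 0.00843% in the pleural cavity, a ratio of 290-fold and a log2 ratio of pleural cavity over bone marrow of −8.18. The sum does not depend on how reads were divided among the listed members. It can still depend on reads divided with pseudogenes that are not listed, such as Ear-ps9, which holds 21.5% of the Ear1 windows. In bulk RNA, fewer cells that carry these transcripts and less of the transcript per cell cannot be told apart.

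Ear1 had the most reads of the family in bone marrow eosinophils, where it ranked 10 of the 5807 listed genes. Its mean reads were 126461 in bone marrow and 349.27 in the pleural cavity, or 10751 and 21.9 RPM. The log2 ratio was −8.94, with a 95% counting interval from −9.05 to −8.83, which is 491-fold lower in pleural cavity eosinophils. This interval, and those that follow, are exact binomial (Clopper-Pearson) intervals on the reads of 2 libraries together, and they cover counting error only, not the spread between mice.

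Ear2, with a coding sequence 95.1% identical to that of Ear1, ranked 13 in bone marrow eosinophils. It had 86795 mean reads in bone marrow and 339.7 in the pleural cavity, or 7379 and 21.3 RPM. The log2 ratio was −8.44 (counting interval −8.55 to −8.33), which is 346-fold lower in pleural cavity eosinophils. In the pleural cavity Ear1 and Ear2 were thus at nearly equal levels, at ranks 3119 and 3135.

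Ear6, whose reads are not shared with other genes by the windows above, ranked 21 in bone marrow eosinophils and 2621 in pleural cavity eosinophils. It had 74206 mean reads in bone marrow and 655 in the pleural cavity, or 6309 and 41.1 RPM. The log2 ratio was −7.26 (counting interval −7.34 to −7.18), which is 154-fold lower in pleural cavity eosinophils. Ear6 thus had the fewest reads of the 3 abundant members in bone marrow and the most in the pleural cavity.

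Ear10 was the rare member, with 298 mean reads in bone marrow and 1.03 in the pleural cavity. The pleural cavity value amounts to 2 reads in both libraries together, against 597 in bone marrow. The log2 ratio was −8.62, and its counting interval ran from −11.71 to −6.80, or from 112-fold to 3349-fold lower. Ear10 could not be placed above or below the other members in ratio at this depth.

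**Figure D3:**
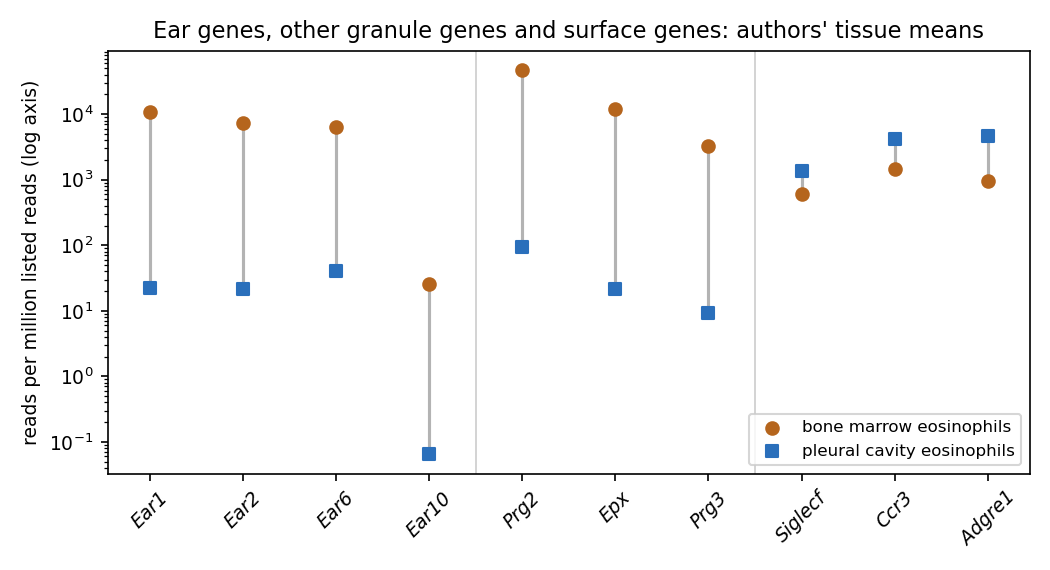
Mean RPM (reads per 1000000 listed reads, y axis, log scale) of the Ear genes, other granule genes and surface genes in bone marrow and pleural cavity eosinophils, 1 point per tissue and gene, each the mean of 2 libraries. Ear1, Ear2 and Ear6 lie between 6309 and 10751 in bone marrow and between 21.3 and 41.1 in the pleural cavity, while Siglecf and Ccr3 are higher in the pleural cavity.

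All 4 members were lower in pleural cavity eosinophils by over 2-fold, as were 50.5% of all listed genes, while 16.0% were higher by over 2-fold. Since the listing used this contrast, nothing is read from the count of 4. The study's threshold for listing included a change of over 2-fold by its own ratio, which was not used here. A listed gene within 2-fold here therefore had a larger change by the study's ratio. Of the listed genes past 2-fold in either direction, 75.9% were lower, and this share was 58.6% without scaling and 86.4% when scaled by the median ratio of abundant genes. The median log2 ratio was −0.69 over all listed genes above 0 in both tissues and 0.32 over the 1945 genes that had 1000 or more mean reads in bone marrow, the latter turning to −0.12 under that median-ratio scaling. Of those 1945 genes, 42 (2.16%) were lower by over 100-fold, and Ear1, Ear2 and Ear6 were among them, at positions 17, 22 and 36 when ordered by ratio.

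**Figure D4:**
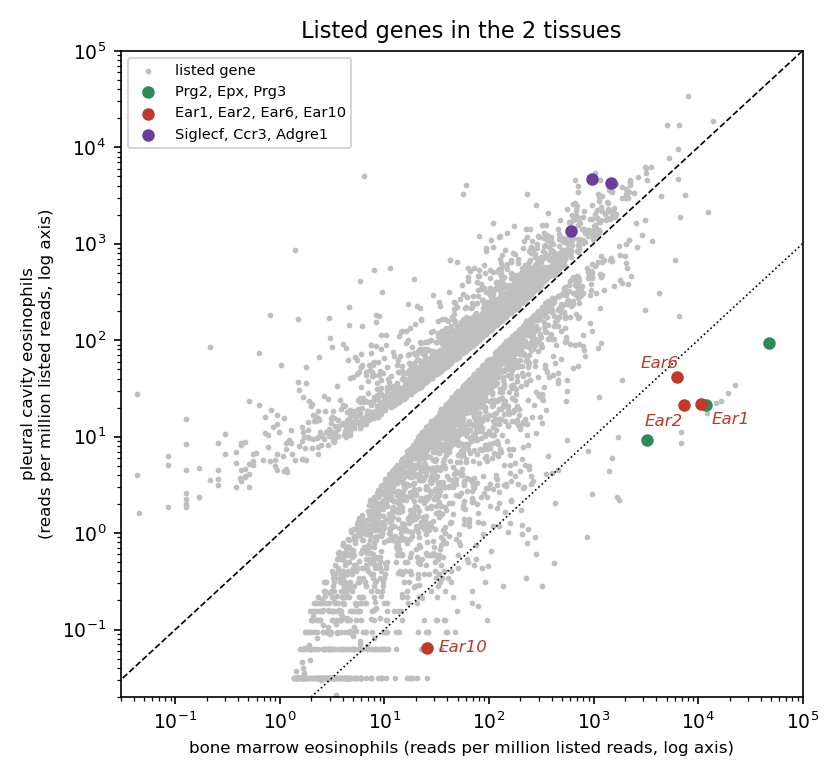
RPM (reads per 1000000 listed reads) of each listed gene in bone marrow eosinophils (x axis, log scale) against pleural cavity eosinophils (y axis, log scale), with Ear, other granule and surface genes marked, a dashed line at equal levels and a dotted line at 100-fold lower (genes at 0 in a tissue cannot be drawn). Ear1, Ear2 and Ear6 lie at the far right and low, where 42 of 1945 genes with 1000 or more bone marrow reads are lower by over 100-fold.

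The make-up of the family differed between the tissues. Ear1 gave 43.9% of the Ear reads in bone marrow and 26.0% in the pleural cavity, Ear2 gave 30.2% and 25.3%, and Ear6 gave 25.8% and 48.7%. Ear10 gave 0.104% and 0.0766%. The log2 ratio of Ear6 was higher than that of Ear1 by 1.68, or 3.20-fold, and higher than that of Ear2 by 1.17, or 2.26-fold. The counting intervals of Ear6 did not overlap those of Ear1 or Ear2. Ear1 and Ear2 differed from each other by 0.50 on the log2 scale, or 1.42-fold, with counting intervals that did not overlap either. These differences within the family do not depend on scaling, because both genes of a pair are divided by the same totals. They have no spread between libraries, and for Ear1 and Ear2 they also depend on the division of reads among paralogs.

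**Figure D5:**
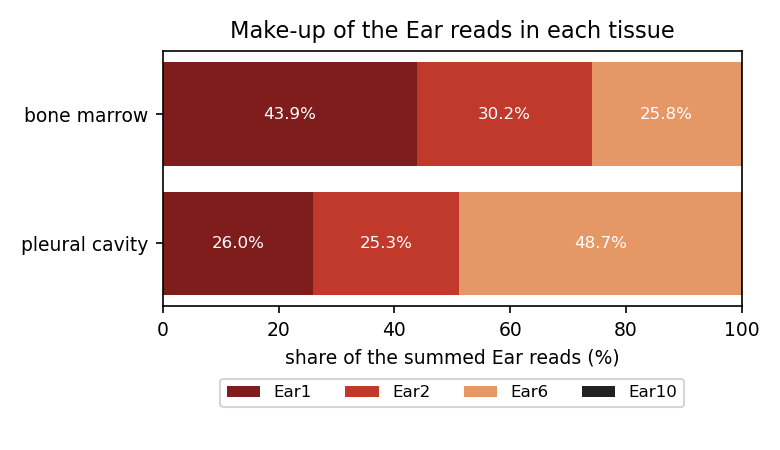
Share of the summed Ear reads (x axis, %) given by each member in pleural cavity and bone marrow eosinophils. Ear6 gives 48.7% in the pleural cavity and 25.8% in bone marrow, and Ear1 gives 26.0% and 43.9%.

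Levels of different genes were compared per kilobase of the longest annotated transcript. In bone marrow eosinophils, the level in RPM per kilobase was 15079 for Ear1, 10263 for Ear2, 7065 for Ear6 and 37.4 for Ear10. In pleural cavity eosinophils it was 30.7 for Ear1, 29.6 for Ear2, 46.0 for Ear6 and 0.0953 for Ear10. The order in bone marrow was therefore Ear1, Ear2, Ear6 and Ear10, and in the pleural cavity Ear6 came first. The distance between Ear2 and Ear6 in bone marrow was 1.45-fold with the longest transcripts and 1.16-fold with coding length, since the longest Ear6 transcript has 893 bases and that of Ear2 719.

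The other granule genes were lower in the pleural cavity by folds like those of the Ear genes. Prg2, which codes for major basic protein, had 555404 mean reads in bone marrow, the most of all listed genes, and 1482 in the pleural cavity, a log2 ratio of −8.99. Epx, which codes for eosinophil peroxidase, had 139062 and 341.5 mean reads (log2 ratio −9.11), and Prg3, a homolog of major basic protein, had 38176.5 and 146.5 (log2 ratio −8.46). The log2 ratio of Ear1 lay within the range of these 3 genes, that of Ear2 lay just above it and that of Ear6 further above. The summed Ear reads amounted to 39.3% of the summed reads of Prg2, Prg3 and Epx in bone marrow and 68.3% in the pleural cavity.

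Of 9 eosinophil markers, 8 were listed, and Il5ra was not. Of the 8, 3 were lower in the pleural cavity by over 2-fold, 4 higher and 1 within 2-fold. The shares over all listed genes were 50.5% lower and 16.0% higher by over 2-fold. Siglecf, which codes for the lectin used in both sorts, had 21371 mean reads in the pleural cavity and 7105.5 in bone marrow, 2.22-fold higher. Ccr3, the eotaxin receptor, had 67556.5 and 17177.5, 2.90-fold higher. Il1rl1, an interleukin receptor, had fractional reads and a log2 ratio of 2.59, and Alox15, a lipoxygenase of eosinophils, had fractional reads and one of −1.85. Adgre1, which codes for F4/80, had a log2 ratio of 2.26, and Itgam, which codes for CD11b, had one of 0.35. F4/80 was used to enrich the bone marrow cells and as a gate in the pleural cavity sort. CD11b was a gate in the pleural cavity sort only. Scaled by the median ratio of abundant genes, the log2 ratio was 0.71 for Siglecf and 1.09 for Ccr3, and that of Itgam turned to −0.092.

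Markers of neutrophils and their precursors were lower in the pleural cavity together with the Ear genes. All 15 genes of the neutrophil and granulocyte precursor list were lower in the pleural cavity by over 2-fold, against 50.5% of all listed genes. Their median log2 ratio was −9.27, with a range from −9.65 to −2.55. Their summed reads took 11.7% of listed reads in bone marrow and 0.232% in the pleural cavity, where Retnlg, at 33927 mean reads, made up most of them. Of the 15 genes, 8 had a lower ratio than Ear1, 8 a lower one than Ear2 and 12 a lower one than Ear6. Basophil and mast cell markers (5 of 6 listed) took 0.0912% of listed reads in bone marrow and 0.000906% in the pleural cavity. Progenitor and cycling genes (4 of 5) took 0.0903% and 0.00529%. T and NK cell genes (3 of 5) took 0.0903% and 0.000997%, but Nkg7 alone gave 10432 of the 10616.5 bone marrow reads, while Cd3d and Ncr1 had 123 and 61.5 reads there and log2 ratios of −2.38 and −2.47. Monocyte and macrophage genes (7 of 12) went both ways, with 3 lower by over 2-fold (Mrc1, Cd163, Ms4a7), 3 higher (Csf1r, C1qb, Marco) and 1 within 2-fold. Their summed share was 0.0589% in bone marrow and 0.183% in the pleural cavity, where Csf1r gave 20627.5 of the 29222 reads. The erythroid list had 3 of 7 genes listed, with Slc4a1 at 0 in the pleural cavity, and of the B cell list only Ms4a1 was listed, at 366 mean reads in the pleural cavity and 107 in bone marrow. High Gr1, a surface mark of neutrophils, was barred by the sort of the pleural cavity only. The part of these cells in the Ear result was not tested.

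The genes whose ratio between the tissues was nearest to each member's were found among genes with 1000 or more bone marrow reads. For Ear1 they were Prom1, Prg2, LOC115487110, Epx and Ltf, at distances of 0.026, 0.050, 0.090, 0.17 and 0.33 on the log2 scale. For Ear2 they were Prg3, Cd177, Gm49083, Chil1 and Olfm4, at 0.028, 0.12, 0.13, 0.21 and 0.23. For Ear6 they were Ldhb, Wfdc21, Ly6a2, Prtn3 and Nkg7, at 0.055, 0.065, 0.14, 0.18 and 0.28. For Ear10 the rule gave Gm49083, Prg3, Ear2, LOC115487110 and Prom1, but its ratio rests on 2 pleural cavity reads, and its counting interval is wider than the distances to them, so these names do not rank as nearest. Several names in the other lists also rest on few mean reads in the pleural cavity: Prom1 on 4.5, LOC115487110 on 9.725, Ldhb on 10.5, Olfm4 on 12.5, Chil1 on 14.5 and Wfdc21 on 16.5. No counting intervals are given for these genes, so their places in the lists are uncertain. With 2 tissue means, likeness here is that of 1 ratio. Granule genes of eosinophils (Prg2, Epx, Prg3) and genes of neutrophils (Ltf, Cd177, Prtn3, Olfm4) both appear among the nearest.

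Among other listed ribonucleases, some were lower and some higher in the pleural cavity. Of 20 genes of the wider list, 6 were listed, 3 of them lower by over 2-fold, 1 higher and 2 within 2-fold. Over all listed genes, 50.5% were lower and 16.0% higher by over 2-fold, so nothing is read from these counts. The median log2 ratio of the 6 was −2.13, and that of their summed reads was −0.06. Rnase2b, also named Ear5, had fractional reads of 10 in the pleural cavity and 82.5 in bone marrow (log2 ratio −3.48). Rnase12 had 102 and 1876.5 mean reads (log2 ratio −4.64), and Rnase10 had 0 and 40, at least 18.1-fold lower against a floor of 3 mean reads. Rnase6 was higher, with 7370.5 mean reads in the pleural cavity and 2336.5 in bone marrow, 2.33-fold higher (log2 ratio 1.22, and 0.77 scaled by the median ratio of abundant genes). Rnaset2b, with fractional reads, had a log2 ratio of −0.78. Rnase2a, also named Ear11, the annotated family member Ear14 and Rnh1, the cellular inhibitor of these ribonucleases, were not listed.

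The promoters of the 4 genes are shown because the members were low in the same tissue. Sequences are from RefSeq (GRCm38.p6), 110 bases before to 15 bases after the RefSeq start, on the coding strand, 5′ to 3′. Capitals mark GATAA, here on the opposite strand and so read as TTATC, and TTGCNNAA. All 4 members had an entry in the promoter table.
Ear1 (chr14:43819625-43819749, minus strand): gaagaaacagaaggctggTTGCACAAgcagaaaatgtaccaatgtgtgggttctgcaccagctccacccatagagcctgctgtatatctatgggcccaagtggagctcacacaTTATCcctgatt
Ear2 (chr14:44102544-44102668, plus strand): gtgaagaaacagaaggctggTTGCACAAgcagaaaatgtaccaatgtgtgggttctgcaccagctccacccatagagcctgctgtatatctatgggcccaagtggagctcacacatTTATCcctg
Ear10 (chr14:43923582-43923706, minus strand): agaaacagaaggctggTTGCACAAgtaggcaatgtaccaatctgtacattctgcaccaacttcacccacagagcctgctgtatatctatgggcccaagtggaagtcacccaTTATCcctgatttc
Ear6 (chr14:51853658-51853782, plus strand): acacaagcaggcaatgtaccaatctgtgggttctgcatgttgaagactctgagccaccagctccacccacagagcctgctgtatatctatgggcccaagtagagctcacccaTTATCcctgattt

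Over 300 bases, the promoters of Ear1 and Ear2 were 97.0% identical, those of Ear1 and Ear10 91.4%, and those of Ear2 and Ear10 89.5%. The Ear6 promoter was 80.7% identical to that of Ear1, 79.0% to that of Ear2 and 80.9% to that of Ear10. GATAA, the core of the GATA factor motif, began at base 4 of the transcript in Ear1, 7 in Ear2, 2 in Ear10 and 3 in Ear6, and it stood in 25.4% of all 32851 promoters of that length on either strand. TTGCNNAA, letters of the C/EBP motif, began at base −92 in Ear1, −90 in Ear2 and −94 in Ear10, was not in the window of Ear6, and stood in 10.8% of all promoters. GAGGAAGT and TATAAA were in none of the 4 windows, against 3.20% and 13.6% of all promoters. No match overlapped another, and the matches only describe letters in the window.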

How the data were processed

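Eosinophils of bone marrow and pleural cavity were compared in 4 libraries, 2 per tissue, grouped by their labels. The authors trimmed reads with SOAPnuke and, per the labels, used HISAT2 2.1.0, Bowtie2 2.2.5 and RSEM 1.2.8, with StringTie 1.0.4 and DESeq also named in the notes. The deposited values are expected counts (estimated counts of RSEM), which the authors averaged within each tissue and did not scale for depth. The table also holds 3 columns of the authors' comparison, a log2 ratio, a p-value and a q-value, which were not used here. The number of per-sample columns was 0, so the depth of each library is unknown. The mean reads of listed genes summed to 15947438 in the pleural cavity and 11762543 in bone marrow, and were used for scaling. The planned test on counts per library could not be run. Mean reads were called whole where they were multiples of 0.5 within 1e-06 reads in both tissues, and 25.8% of listed genes were not.

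Gene models are those of GENCODE on GRCm38, in a release earlier than that used by the authors, and promoters are those of RefSeq. Members and gene lists were chosen with earlier results of these data known. Named genes were the Ear members, the listed genes of fixed lists of granule, ribonuclease, transcription factor and cell type marker genes, and the 5 genes nearest in ratio to each member; some list genes are not reported here. The scalings were run on simulated data in which most genes were left unchanged. There the median ratio and the trimmed mean of log ratios recovered the depth ratio, and the total of listed reads was shifted by the changed genes. The listed genes were selected for a difference between the tissues, so the simulation cannot tell which scaling is right for them. The effect of each scaling is therefore given with the alternatives. Alternatives covered scaling, a pseudocount of 1, thresholds and lengths; those for Ear1 and Ear10, for the other named genes and list medians, for members without fractional reads and for the transcript of support level 1 were chosen after seeing the data. Scripts ran in Python 3.11.15 with biopython 1.88, scipy 1.17.1, numpy 2.4.6, matplotlib 3.10.9 and pandas 2.3.3.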

Additional observations from a re-analysis of the deposited data

How the results depend on the processing

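The log2 ratios of the 4 Ear genes and the family sum kept their direction under every alternative run for them. Scaling shifts every log2 ratio by one amount: 0.44 without scaling, −0.44 by the median ratio of abundant genes, 0.19 by the trimmed mean of log ratios. In that order the log2 ratio was −8.50, −9.38 and −8.75 for Ear1, −8.00, −8.88 and −8.25 for Ear2, −6.82, −7.71 and −7.07 for Ear6, and −7.74, −8.62 and −7.99 for the family sum. The ratio of Ear10 ran from −9.06 (median ratio) to −7.64 (pseudocount of 1), within its counting interval. With members without fractional reads, which leaves Ear6, the family sum was −7.26. Among 58 other list genes, the median ratio turned the direction of 2, Itgam (−0.092) and Xbp1 (−0.13), and brought 5 from past to within 2-fold, Gata1, Id1, Ms4a1, Rnase6 and Siglecf. It also turned the median of genes with 1000 or more bone marrow reads from 0.32 to −0.12. The count of listed genes lower by over 2-fold was 2935, between 2510 and 3326 under other scalings, 2130 past 4-fold, and 1725 with at least 100 mean reads in bone marrow, since fewer genes were counted. Ear2 over Ear6 per kilobase in bone marrow was 1.45, and 1.16 by coding length, 1.16 with the transcript of support level 1 and 1.17 without length. No paired analysis was possible because the table holds 1 mean per tissue and no replicate columns, and leaving out a replicate could not be run for the same reason. Ear10 rests on 2 reads in the pleural cavity and has fractional reads, with 24.2% of its windows shared with family genes.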

Other observations

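A list of 13 genes linked to transcription of eosinophil granule genes, an inhibitor of DNA binding among them, had 9 genes listed. Of these 9, 3 were lower and 2 higher by over 2-fold, against 50.5% and 16.0% of all listed genes. Gata1, an eosinophil lineage factor, was higher in pleural cavity eosinophils, with 7241 mean reads against 2477 in bone marrow (log2 ratio 1.11), and Id1, an inhibitor of DNA binding, had 2143.5 and 668 (log2 ratio 1.24). Scaled by the median ratio of abundant genes, these were 0.66 and 0.80, within 2-fold. Gata2, Irf8 and Gfi1 were lower, with log2 ratios of −2.93, −2.31 and −5.31. The remaining 4, Spi1, Id2, Xbp1 and Trib1, lay within 2-fold, at 0.56, 0.82, 0.31 and 0.50, and Xbp1 turned to −0.13 under that scaling. The median over the 9 genes was 0.50, beside −0.69 over all listed genes above 0 in both tissues and 0.32 over those with 1000 or more bone marrow reads. The list was not split into activators and inhibitors, so its median describes neither alone. Cebpa, Cebpb, Cebpe and Zfpm1 were not listed.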
